A study of Homo sapiens with 23 samples.

Results

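Of 56767 genomic regions that carried an H4K12ac peak in both replicate libraries of NCI-H23 cells, 6586 (11.6%) overlapped no H4K5acK8ac peak of either replicate. These 6586 regions, called K5K8-free regions here, are described below, and the remaining 50181 shared H4K12ac regions, called K5K8-positive, serve for comparison. A shared region is the stretch covered by an H4K12ac peak of replicate 1 and by one of replicate 2, and a single shared base counted as an overlap with any other peak. The word free refers to called peaks only, since a weak signal below the peak caller's limit cannot be told apart from none.

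NCI-H23 is an established line of human non-small cell lung cancer. Peaks came from chromatin immunoprecipitation and sequencing (ChIP-seq) of 10 histone modifications and of BRD2, with 2 libraries per target, and 1 input library was not analysed here. The labels' treatment text names the BET inhibitor JQ1 and its solvent DMSO without tying either to a library, so no treatment comparison was made and treatment may be common to all libraries or differ between them. The labels do not say whether the 2 libraries of a target came from separate cultures. The second H3K9me3 library carries a different replicate number in its description than in its title, and the title was followed. Antibodies were rabbit polyclonal for H4K12ac and mouse monoclonal for H4K5acK8ac. The cell line label was not checked against marker genes here, because no gene annotation of the files' build was used. For the same reason regions are given by position and not by gene.

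The tail of histone H4 can be acetylated at several lysines, among them lysines 5, 8 and 12. Newly made H4 is deposited onto DNA with acetyl groups on lysines 5 and 12, and acetylation of the H4 tail is also placed at active promoters and enhancers by acetyltransferases. H4K5acK8ac is the tail that carries both of these acetyl groups at once, a form to which the bromodomains of BET proteins such as BRD2 can bind. H3K27ac marks active promoters and enhancers, H3K4me1 enhancers and the flanks of promoters, and H3K4me3 promoters. H3K36me3 lies over the bodies of transcribed genes, H3K27me3 over chromatin silenced by Polycomb complexes, and H3K9me3 over constitutive heterochromatin.

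The K5K8-free regions were narrow and weak, which the rule favours, so these values are a description. Their median width was 176.5 bp, with the middle 90% between 23 and 325 bp, and the widest measured 1002 bp. The K5K8-positive regions had a median width of 331 bp. Together the K5K8-free regions covered 1.12 Mb, against 24.6 Mb for the others. The authors' −log10 q of the overlying H4K12ac peak had a median of 2.17 in replicate 1 and 1.84 in replicate 2, compared with 5.72 and 4.40 at K5K8-positive regions. The authors' fold enrichment had medians of 2.81 and 3.02, compared with 3.98 and 4.04. A peak significance of at least 5 in both replicates was reached by 28 K5K8-free regions (0.425%, against 32.5% of all shared regions).

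Most of the K5K8-free regions did not come from the flank of an H4K12ac peak that met H4K5acK8ac elsewhere. In 5747 of them (87.3%) neither of the overlying H4K12ac peaks met an H4K5acK8ac peak anywhere along its length. Both H4K12ac summits lay inside the region in 3024 cases (45.9%, against 60.5% of all shared regions), and no summit lay inside in 1705 (25.9%, against 12.9%). The median distance to the nearest H4K5acK8ac peak was 3761.5 bp. At the border of the rule, the 300 regions within 50 bp of an H4K5acK8ac peak carried H4K5ac in 56.7% and 66.0% of cases (replicates 1 and 2). The 2231 K5K8-positive regions with at most 50 bp of overlap did so in 81.1% and 82.3%, and the 47950 with more overlap in 96.4% and 96.5%.

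**Figure D1:**
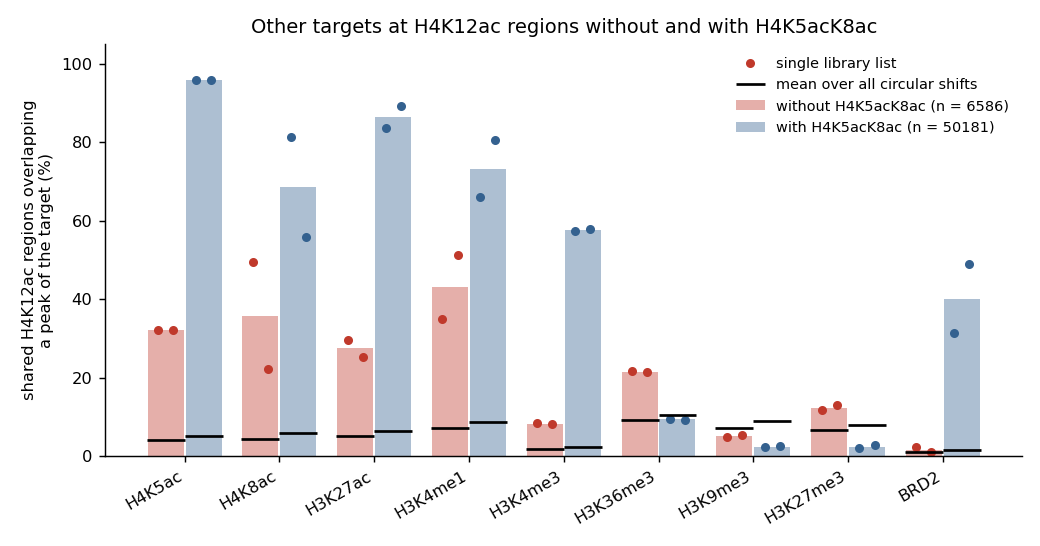
Share of H4K12ac regions (%) that overlapped a peak of each other target, for regions without (red) and with (blue) an H4K5acK8ac peak. Points are the 2 library lists (replicate 1 left), bars their mean, and black lines the mean share over all circular shifts of the regions. At regions without H4K5acK8ac the acetylation marks lie lower and H3K36me3 and H3K27me3 lie higher than at regions with it, and BRD2 lies at 2.25% and 1.09%.

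The single acetylation marks were examined first. As the expected share, each region was moved around its chromosome through every possible circular shift, and the share of positions that met a peak was averaged. These shifts also pass over H4K5acK8ac peaks, where K5K8-free regions cannot lie by the rule. H4K5ac was present at 32.1% of K5K8-free regions in replicate 1 and at 32.2% in replicate 2, which was 7.88 and 7.90 times the expected share. H4K8ac was present at 49.4% and 22.1%, or 8.26 and 8.16 times the expected share. The first H4K8ac list holds 224726 peaks and the second 116852, and the part of list length in the gap between these shares was not tested. H3K27ac was present at 29.7% and 25.2%, or 5.73 and 4.88 times the expected share. In the plot of shares by target all of these values lie below those of K5K8-positive regions, where H4K5ac reached 95.8% and 95.9%, H4K8ac 81.4% and 55.8%, and H3K27ac 83.7% and 89.2%. For each of the 3 marks both K5K8-free values were lower than both K5K8-positive values. For H4K5ac and H4K8ac the rule favours this direction, since an H4K5acK8ac tail carries both acetyl groups. Within libraries, the K5K8-free minus K5K8-positive difference was -63.7 ± 0.0168 percentage points for H4K5ac (SD, n = 2 libraries), -32.9 ± 1.28 for H4K8ac and -59.0 ± 7.06 for H3K27ac. These differences, and those for the other targets below, were not tested. Their SDs cover only the 2 lists of the mark, not the H4K12ac and H4K5acK8ac libraries, which define both sets of regions. Without H4K12ac replicate 1 or 2, the log2 of observed over expected H4K5ac share at K5K8-free regions was 1.75 and 1.94. With both it was 2.98.

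Counted over both lists of a mark, H4K5ac was found in both at 1165 K5K8-free regions (17.7%, against 84.4% of all shared H4K12ac regions). H4K8ac was found in both lists at 1022 (15.5%, against 46.8%) and H3K27ac at 1359 (20.6%, against 74.8%). At least 1 of the 3 marks was present at 61.8% of K5K8-free regions on average over the 8 ways of choosing a list per mark, with a range from 53.6% to 68.4%. The average was 98.7% at K5K8-positive regions. The K5K8-free share was 36.1% without H4K12ac replicate 1, 39.1% without H4K12ac replicate 2, and 27.8% with the other targets held to a −log10 q of at least 5. None of the 3 marks was found in any list at 1575 K5K8-free regions (23.9%, against 3.06% of all shared regions). All 3 were found in both of their lists at 114 (1.73%, against 38.6%).

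The marks also combined differently. H4K5ac and H4K8ac were each found in both lists at 322 K5K8-free regions (4.89%, against 44.4% of all shared regions). Peaks for each single modification thus overlay regions that had no peak for the double one. The H4K5acK8ac lists hold 75854 and 71837 peaks, against 125816 and 118148 for H4K5ac and 224726 and 116852 for H4K8ac. The part of list length in this count was not tested. With a mark counted as present in either list, H4K8ac alone among the 3 marks was found at 1125 regions (17.1%), H4K5ac with H4K8ac at 1105 (16.8%) and all 3 together at 980 (14.9%). At K5K8-positive regions the combination of all 3 made up 78.9%, H4K5ac with H4K8ac 6.50% and H4K8ac alone 0.536%. Over all 9 other targets, the 3 most frequent states of K5K8-free regions were H4K8ac with nothing else (626), no other target at all (610, or 9.26% against 1.12% of all shared regions) and H4K5ac with H4K8ac and nothing else (519).

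The acetylation peaks that did overlie K5K8-free regions were weaker than those over K5K8-positive ones, though not weak for their lists in each case. The H4K5ac peaks there had a median −log10 q of 2.96 and 3.22 in the 2 libraries, against 16.6 and 17.7 at K5K8-positive regions. The median of the first set lay near the middle of the whole H4K5ac list, at its percentiles 46.7 and 46.9. H4K8ac peaks had medians of 3.49 and 1.93, against 6.64 and 3.06, and stood at percentiles 68.5 and 52.4 of their lists. H3K27ac peaks had medians of 9.19 and 10.3, against 149 and 220, and stood at percentiles 73.7 and 65.1. The medians for H3K27ac and H4K8ac thus lay above the middle of their lists. These percentiles set the highest peak met by each region against a list that counts every peak once. A wide peak is met from more positions than a narrow one. The part of peak width in these percentiles was not tested, so they are a description.

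The methylation marks did not share 1 direction. H3K4me1 was present at 34.9% and 51.2% of K5K8-free regions (6.86 and 5.46 times expected) and H3K4me3 at 8.32% and 8.11% (4.42 and 4.32 times). Both were lower than at K5K8-positive regions, where H3K4me1 was present at 66.0% and 80.5% and H3K4me3 at 57.4% and 57.8%. H3K36me3 was present at 21.6% and 21.5%, 2.29 and 2.33 times the expected share. At K5K8-positive regions H3K36me3 was present at 9.46% and 9.26%, 0.902 and 0.905 times expected. H3K27me3 was present at 11.7% and 12.9%, 1.94 and 1.83 times expected, against 1.97% and 2.85%, or 0.270 and 0.326 times, at K5K8-positive regions. H3K9me3 was present at 4.95% and 5.50%, 0.790 and 0.678 times expected, against 2.24% and 2.62%, or 0.283 and 0.264 times. For H3K36me3, H3K27me3 and H3K9me3 both K5K8-free shares were thus above both K5K8-positive shares.

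In both of their lists, H3K4me1 was found at 2216 K5K8-free regions (33.6%, against 61.9% of all shared H4K12ac regions) and H3K4me3 at 494 (7.50%, against 50.9%). H3K36me3 was found in both lists at 1307 (19.8%, against 9.20%), H3K27me3 at 626 (9.51%, against 2.51%) and H3K9me3 at 245 (3.72%, against 1.91%). The H3K36me3 peaks over K5K8-free regions were also strong, with median −log10 q of 30.9 and 27.3 against 14.1 and 13.2 at K5K8-positive regions. The K5K8-free medians stood at percentiles 96.6 and 96.2 of the whole H3K36me3 lists. The limit given above for such percentiles holds here too, since wide peaks are met more often.

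Across marks, the log2 ratio of observed to expected share at K5K8-free regions averaged 2.81 ± 0.35 for the other acetylation marks (SD between marks, n = 3) and 1.28 ± 1.19 for the methylation marks (n = 5). The difference of 1.52 did not pass the threshold of 0.05 when marks were permuted between the classes (exact permutation test, two-sided, p = 0.0714; no p under 0.0179 is possible with 3 marks against 5). Values of both classes overlapped, since H3K4me1 at 2.61 lay above H3K27ac at 2.40. H4K5ac and H4K8ac are the acetyl groups of the form that the rule excludes. The shifts also pass over H4K5acK8ac peaks, where K5K8-free regions cannot lie. The rule thus bears on the acetylation class, and the test cannot separate this from a difference between the classes.

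BRD2, the bromodomain protein, was rare at K5K8-free regions. It was found at 148 K5K8-free regions in replicate 1, or 2.25% (95% Wilson interval 1.92% to 2.63%), and at 72 in replicate 2, or 1.09% (0.869% to 1.37%). These intervals treat regions as independent and cover counting error only. The shares were 2.25 and 0.966 times expected, above the expected share in replicate 1 and just below it in replicate 2. The shifts behind this expectation include H4K5acK8ac peaks, where K5K8-free regions cannot lie. A comparison with bases at the same distance from H4K5acK8ac is given below. At K5K8-positive regions BRD2 was present at 31.4% and 48.9%, 19.1 and 30.5 times expected. BRD2 was found in both lists at 8 K5K8-free regions (0.121%, against 25.3% of all shared regions). The BRD2 peaks concerned were weak, with a median −log10 q of 0.924 in replicate 1 and 1.44 in replicate 2, against 2.77 and 6.13 at K5K8-positive regions. A BRD2 significance of 5 or more was reached at 1 K5K8-free region in replicate 1 and at none in replicate 2, the latter with a highest value of 4.81.

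Because K5K8-free regions had weaker H4K12ac peaks, regions of like significance were also compared. The rule favours a lower H4K5ac share at K5K8-free regions in these bins too. Regions were binned by the lower of their 2 H4K12ac −log10 q values. In the bin below 1.3, with 2484 K5K8-free and 5253 K5K8-positive regions, H4K5ac was present at 26.1% and 87.6% (means of 2 lists), H3K27ac at 23.8% and 73.7%, and H3K4me3 at 6.24% and 35.0%. In the bin from 3 to 5, with 372 and 9370 regions, BRD2 was present at 2.82% ± 0.950 of K5K8-free regions (SD, n = 2 lists) and at 31.1% of K5K8-positive ones. BRD2 thus stayed below 3% of K5K8-free regions in each bin up to 5, while its share at K5K8-positive regions was several times higher in each. H3K36me3 differed in the other direction, with 31.2% and 31.5% of K5K8-free (replicates 1 and 2) and 9.19% and 8.80% of K5K8-positive regions in the bin from 3 to 5. In the lowest bin it was present at 19.3% of K5K8-free and 10.2% of K5K8-positive regions as a mean of 2 lists. Regions within a bin still differed in width, with medians of 223.5 and 330 bp in the bin from 3 to 5. With both restricted, to widths from 200 to under 300 bp and −log10 q from 2 to under 3, 484 K5K8-free and 3422 K5K8-positive regions remained. Of these, BRD2 was present at 1.86% and 18.2%, H4K5ac at 39.9% and 95.1%, H3K36me3 at 22.1% and 9.41%, and H3K27me3 at 13.8% and 2.53% (means of 2 lists).

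**Figure D2:**
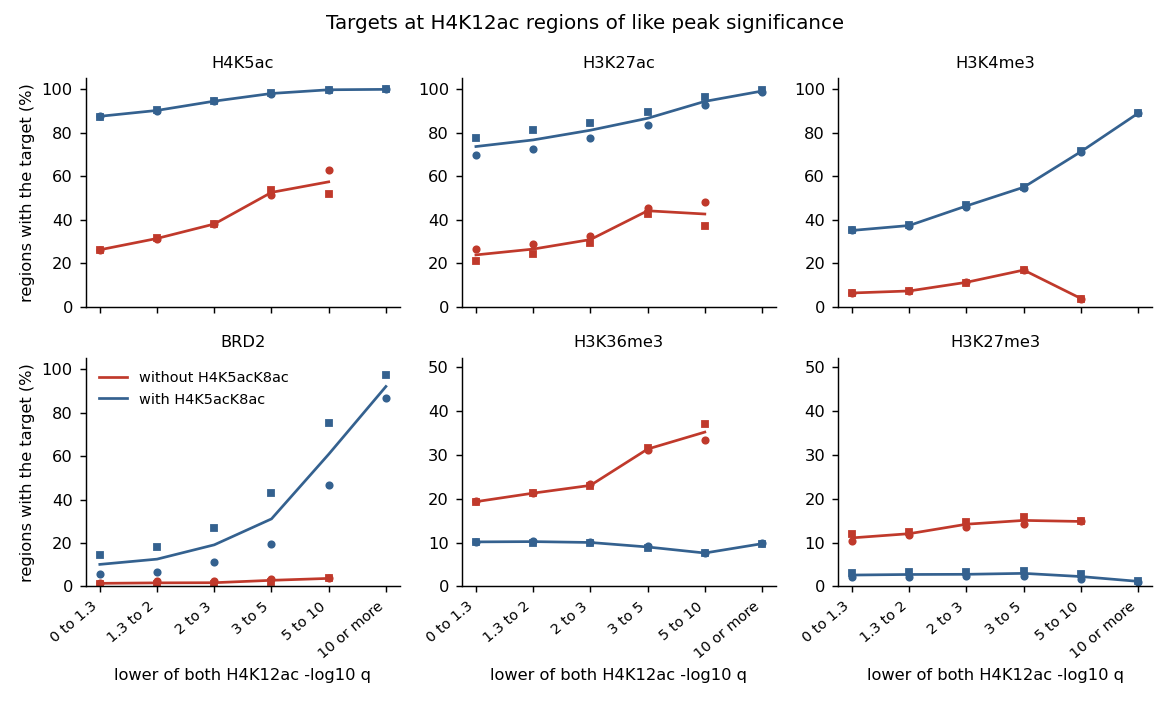
Share of regions (%) with each of 6 targets, by the lower of both H4K12ac −log10 q values, for regions without (red) and with (blue) an H4K5acK8ac peak. Lines are means of 2 lists, circles replicate 1 and squares replicate 2, and bins with under 20 regions are not drawn. In each bin drawn for both sets H4K5ac, H3K27ac, H3K4me3 and BRD2 are lower, and H3K36me3 and H3K27me3 higher, at regions without H4K5acK8ac.

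The marks at K5K8-free regions varied with distance from the nearest H4K5acK8ac peak. H3K27ac was present at 43.7% of the 924 regions less than 200 bp away, at 46.9% of the 1150 between 200 bp and 1 kb, and at 1.34% of the 374 at 100 kb or more (means of 2 lists). H4K5ac went from 55.6% to 11.6% over the same range. H3K36me3 was most frequent between 200 bp and 1 kb, at 34.7%, and was present at 0.134% at 100 kb or more. H3K27me3 took the opposite course, with 6.11% in the nearest bin, 25.7% between 20 and 100 kb and 49.2% at 100 kb or more. H3K9me3 went from 2.22% to 17.5%. H3K4me3 was high at both ends, with 19.5% in the nearest bin, 2.57% between 5 and 20 kb and 11.6% in the farthest. BRD2 lay between 1.57% and 1.87% in every bin. H4K12ac significance hardly varied, with bin medians of the lower −log10 q from 1.51 to 1.68.

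**Figure D3:**
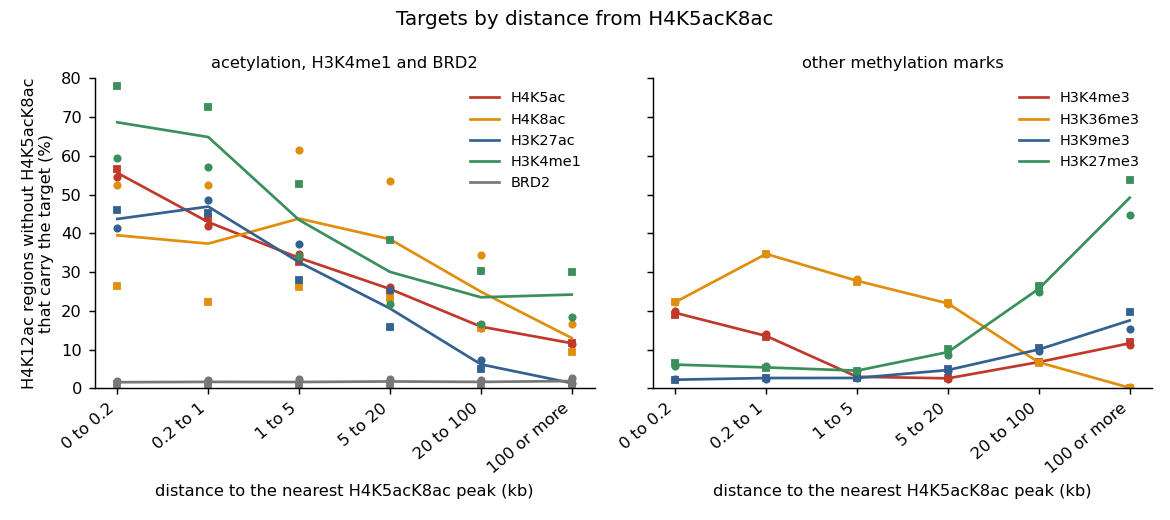
Share (%) of H4K12ac regions without H4K5acK8ac that carried each target, by distance to the nearest H4K5acK8ac peak in kb. Lines are means of 2 lists, circles replicate 1 and squares replicate 2. H3K27ac reaches 1.34% and H3K27me3 49.2% in the farthest bin, and BRD2 stays below 2% as a mean throughout.

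Marks differ in how much of the genome they cover near to and far from H4K5acK8ac. Midpoints of K5K8-free regions were therefore set against all bases at the same distance. Stretches that hold no peak of any target were kept among these bases, which lowers the base shares of the zones they lie in. At 100 kb or more, H3K27me3 covered 42.5% and 48.7% of midpoints and 5.61% and 7.35% of bases in that zone (replicates 1 and 2). H3K4me3 covered 11.0% and 11.2% of midpoints there, against 0.0763% and 0.0810% of bases. Within 1 kb of H4K5acK8ac, H3K27ac covered 42.3% and 42.7% of midpoints against 12.4% and 20.6% of bases, so that its excess there was 3.41-fold and 2.07-fold. H3K36me3 exceeded its base share 3.12-fold and 3.13-fold within 1 kb, and stood at 0.883 times that share in both replicates between 20 and 100 kb. BRD2 covered 1.24% and 0.696% of midpoints within 1 kb, against 0.370% and 0.237% of bases. Measured within distance zones, BRD2 was therefore above its base share in both replicates, at low levels.

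The largest group with a methylation mark other than H3K4me1 was that with H3K36me3 in both lists, 1307 regions at a median of 1497 bp from H4K5acK8ac. H3K27ac was present at 85.5% and 69.1% of them, against 13.4% and 12.3% of the 5056 regions with H3K36me3 in neither list. Both marks were found in both of their lists at 862 regions (13.1% of K5K8-free, against 8.30% of all shared regions). Among regions with H3K36me3 in both lists, that was 862 of 1307 K5K8-free regions, against 4711 of all 5223 shared regions. H3K27ac was thus less frequent in the K5K8-free H3K36me3 group than at all shared regions with H3K36me3. H3K4me1 was present at 59.8% and 79.3% of the H3K36me3 group, and BRD2 at 1.45% and 0.689%. An enhancer-type combination, H3K4me1 and H3K27ac in both lists and H3K4me3 in neither, was found at 843 K5K8-free regions (12.8%, against 25.3%), of which 510 had H3K36me3 in both lists. BRD2 was found in both lists at 1 of these 843 regions. No matching counts over all shared regions are given here for H3K36me3 or BRD2 at this combination.

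The 626 regions with H3K27me3 in both lists formed a separate group, at a median of 31.8 kb from H4K5acK8ac. H3K27ac was present at 0.639% and 1.44% of them, H3K36me3 at 0.319% in each library and H4K5ac at 14.7% and 14.5%. H3K4me3 was found in both lists at 171 of the 626, the combination of active and Polycomb marks known as bivalent (2.60% of K5K8-free, against 1.54% of all shared regions). Of these 171 regions, 141 had H3K4me1 in both lists and 1 had H3K27ac in both lists. Such counts over all shared regions are not given here. Among the 494 K5K8-free regions with H3K4me3 in both lists, H3K27me3 was present at 38.3% and 41.3%. It was found in both lists at 171 of these 494, against 874 of the 28879 shared regions with H3K4me3 in both lists. The 272 K5K8-free regions with H3K4me3 in both lists and H3K27me3 in neither lay at a median of 218 bp from H4K5acK8ac. They had H3K27ac at 55.9% and 65.4%. The bivalent ones lay at a median of 12069 bp.

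H3K9me3 was found in both lists at 245 regions, and 131 of them also had H3K27me3 in both (1.99%, against 0.430% of all shared regions). H3K36me3 and H3K27me3 were found together in both lists at 2 of the 6586 regions (0.0304%, against 0.0299%). Assigned to the first mark present in either list, in the order H3K4me3, H3K27me3, H3K9me3, H3K36me3 and H3K4me1, the K5K8-free regions comprised 588, 759, 150, 1352 and 1619 regions, with 2118 (32.2%) left without a methylation mark. Of all shared H4K12ac regions 5.59% were without one, and the H3K4me3 class held 52.9% of all shared regions against 8.93% of K5K8-free ones. For the H3K27me3, H3K9me3, H3K36me3 and H3K4me1 classes the K5K8-free shares were 11.5%, 2.28%, 20.5% and 24.6%. Over all shared regions they were 1.64%, 1.97%, 7.44% and 30.4%. Another acetylation mark was present in some list at 94.0% of the K5K8-free H3K36me3 class. The class without methylation had 70.5% and the H3K27me3 class 41.4%. Over all shared regions these classes had 98.1%, 79.4% and 50.9%, in the same order and each higher. K5K8-free regions themselves made up 759 of the 929 shared regions of the H3K27me3 class. They also made up 2118 of the 3171 without methylation. At K5K8-positive regions alone the classes had 99.97%, 97.3% and 93.5%, in the same order.

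**Figure D4:**
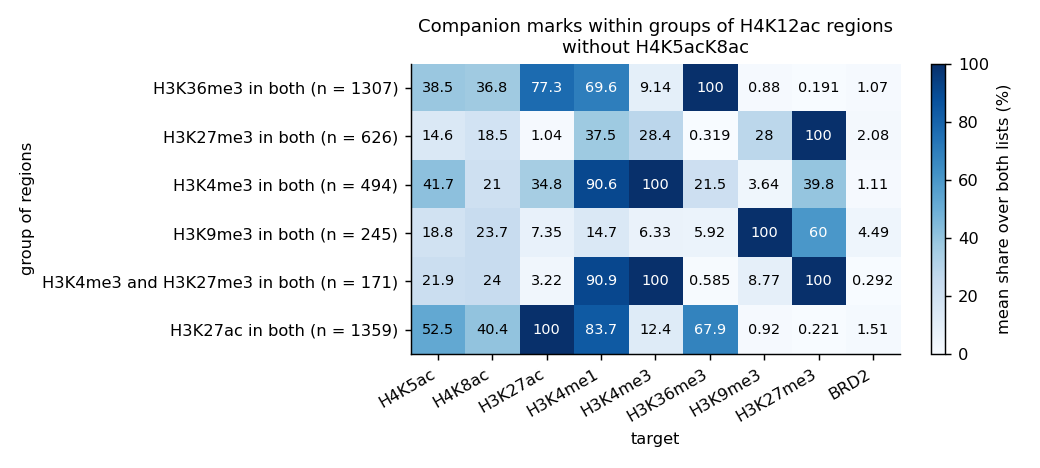
Share (%, mean of 2 lists) of each target within 6 overlapping groups of H4K12ac regions without H4K5acK8ac, each defined by marks found in both lists; values of 100 on a group's own marks follow from its definition. H3K27ac is present at 77.3% of the H3K36me3 group and 1.04% of the H3K27me3 group, and BRD2 at no more than 4.49% of any group shown.

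Single regions show these types, with positions in hg19. By the lower of its 2 H4K12ac −log10 q values the strongest K5K8-free region was chr2:133029643-133029987, with 13.8 and 10.2. Its fold enrichment was low for that significance, at 2.39 and 2.47, and it carried H4K5ac, H4K8ac and BRD2 in both lists. A neighbour at chr2:133018884-133018950 also had BRD2 in both lists, together with H3K9me3 and H3K27me3, and its H4K12ac fold was 1.90 and 2.07. These are 2 of the 8 regions with BRD2 in both lists. The third strongest region, chr5:40825549-40826110, had −log10 q of 7.61 and 7.01 and carried H4K5ac, H3K27ac and H3K4me1 in both lists, 470 bp from H4K5acK8ac. The fourth, chr11:68856435-68856683, had 7.35 and 6.41 with H3K4me1 and H3K36me3 in both lists and H3K27ac in neither.

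The seventh, chr1:1341192-1341206, is 15 bp of a peak edge, with significance values of 6.08 and 31.9 that belong to the whole overlying peaks. The eighth, chr18:74322886-74323140, had 6.08 and 6.81 and carried no other target than H4K8ac in 1 list. The strongest region with no other target was chr2:71776076-71776332, 257 bp wide, with 3.97 and 5.41. The strongest bivalent region was chr2:120281515-120281983, with 8.98 and 5.55 and fold enrichments of 4.99 and 4.56, 19647 bp from H4K5acK8ac. With H3K9me3 and H3K27me3 in both lists, chr20:46523405-46524093 had 5.59 and 5.70 at folds of 1.94 and 2.13. The widest region was chr1:156562897-156563898, 22 bp from H4K5acK8ac, with all of the other targets in both lists except H3K9me3, H3K27me3 and BRD2.

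The K5K8-free share of shared H4K12ac regions varied between chromosomes. Over the 22 autosomes it ranged from 4.95% on chromosome 22 to 17.6% on chromosome 7, with a median of 11.3%. The number of K5K8-free regions per Mb ranged from 0.518 on chromosome 4 to 7.34 on chromosome 17. The marks at these regions differed between chromosomes as well. The same mark shares over all shared regions of a chromosome or window are not given here. The differences below are thus not read as particular to K5K8-free regions. H3K36me3 was found in both lists at 49.8% of the K5K8-free regions of chromosome 19 and 5.05% of those of chromosome 4. H3K27me3 ranged from 1.64% on chromosome 22 to 21.4% on chromosome 5. In windows of 5 Mb, the first window of chromosome 19 held the most K5K8-free regions, 176 of 962 shared regions (18.3%), and 60.8% of them had H3K36me3 in both lists. The first window of chromosome 12 had the highest share among the 4 windows with the most such regions, at 106 of 276 (38.4%), of which 17.9% had H3K27me3 and 13.2% H3K36me3 in both lists. Neighbouring K5K8-free regions were far apart, with a median gap of 85502 bp and 8.43% of gaps under 1 kb.

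**Figure D5:**
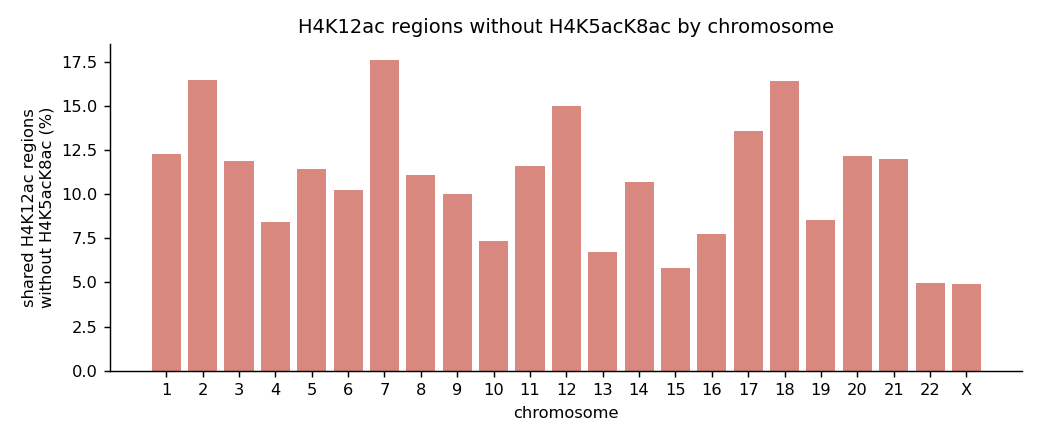
Share (%) of the shared H4K12ac regions of each chromosome that overlapped no H4K5acK8ac peak. Chromosome Y is not drawn (7 of 15 shared regions, 46.7%). The share runs from 4.95% on chromosome 22 to 17.6% on chromosome 7 among autosomes.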

How the data were processed

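Peak lists of 22 ChIP-seq libraries (11 targets, 2 libraries each) were used as deposited, and the group and replicate number of each were taken from its title. The submitters' processing notes name BWA, MACS2 and the build hg19, with versions, settings and control not given in the sources used here. Each deposited peak has a fold enrichment, which is a ratio, and a significance that the authors give as −log10 p and −log10 q. The deposited score and all positions follow the narrowPeak layout, and the score was not used. Lists give no read numbers, so depth is unknown. The lowest −log10 p in a list was between 2.00 and 2.11, so every list includes weak peaks.

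H4K12ac lists were intersected, and intervals that met an H4K5acK8ac peak of either replicate by at least 1 bp were set aside as K5K8-positive. Expected shares are exact means over all circular shifts of a region within the span of called peaks of its chromosome, without random draws. No p was computed across regions, which are not replicates. The test of 3 acetylation against 5 methylation marks was an exact permutation test with the mark as unit, and it measures spread between marks. Functions were tested on simulated data. Python 3.11.15, numpy 2.4.6, pandas 2.3.3 and matplotlib 3.10.9 were used. Coordinates are 1-based.

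Members, groupings and marks were chosen with earlier results of these data known. Named regions follow a rule: the 8 strongest by the lower H4K12ac −log10 q, the 3 strongest with no other target, the 3 strongest with BRD2, H3K27ac, H3K4me3, H3K9me3, H3K36me3 or H3K27me3 in both lists, and the 3 widest. A selection of these is printed. Alternatives changed the peak thresholds, distance, width, overlap, span, chromosomes and libraries. Sequences and gene names were not used here.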

Additional observations from a re-analysis of the deposited data

Results flagged for a closer look

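H3K36me3 stood at 2.31 times its expected share at K5K8-free regions (mean of 2 lists), with both lists above 1, while both lists lay below 1 at K5K8-positive regions. H3K27me3 stood at 1.88 times its expected share at K5K8-free regions, again with both lists above 1 there and both below 1 at K5K8-positive regions. These opposite directions, taken over all K5K8-free regions, drew attention. Neither excess over this expected share held at every distance from H4K5acK8ac. The mean H3K27me3 ratio was 0.976 under 200 bp, 0.847 from 200 to 1000 bp and 0.687 from 1000 to 5000 bp. Farther away it was 1.41, then 3.89 from 20000 bp and 7.39 from 100000 bp. For H3K36me3 it lay between 2.27 and 3.48 below 20000 bp, then at 0.817 and, from 100000 bp, 0.0172. Against all bases within 1000 bp of H4K5acK8ac, midpoints there had H3K27me3 at 3.95 and 3.90 times its base share (replicates 1 and 2). The difference between K5K8-free and K5K8-positive regions was not tested. The K5K8-free minus K5K8-positive share was 12.2 ± 0.0256 percentage points for H3K36me3 and 9.91 ± 0.208 for H3K27me3 (SD, n = 2 libraries). These SDs likewise cover only the 2 lists of each mark, with the regions held fixed.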

How the results depend on the processing

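The number of K5K8-free regions depended most on the H4K12ac peaks used. It was 4102 with H4K12ac −log10 q of at least 1.3, 28 at 5 or more, 3974 with a width of at least 150 bp, and 3024 with both H4K12ac summits inside, the last chosen after seeing the data. With peaks of 1 H4K12ac library in place of the intersection it ranged from 43513 (without replicate 1) to 46228 (without replicate 2). Leaving out an H4K5acK8ac library gave 7550 and 9815 regions. Over all single libraries left out, the share with another acetylation mark ranged from 36.1% (without H4K12ac replicate 1) to 70.7% (without H4K5acK8ac replicate 2). At an H4K12ac −log10 q of at least 5, another acetylation mark was present at 83.5% and BRD2 at 7.14% of the 28 regions, and H3K9me3 turned above expectation, at 0.87 in place of −0.45 on the log2 scale. With other targets' peaks held to a −log10 q of at least 5, another acetylation mark was present at 27.8% and BRD2 at 0.00759%. The acetylation minus methylation difference kept its direction under all 20 alternatives, between 0.45 and 1.82, with p between 0.0536 and 0.696, none past 0.05 (exact permutation test). The rule bears on the acetylation class in each of them too. BRD2 against expectation changed sign between its libraries, at 1.17 without replicate 2 and −0.05 without replicate 1. Against bases of the same distance zone, as given above, BRD2 was above its share in both replicates. H4K5ac, H4K8ac, H3K27ac, H3K4me1, H3K4me3, H3K36me3 and H3K27me3 stayed above expectation in every alternative.

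With a replicate block, where only lists of the same replicate number were combined, there were 49675.5 regions per replicate on average, another acetylation mark was present at 41.0% and BRD2 at 1.75%, and the difference between mark classes was 1.24 (p = 0.0714, exact permutation test). Same-numbered lists deviated together in few cases, with a correlation above 0.1 in 2 of 55 pairs of targets and a median of -0.0015 over bins of 100000 bp, so the numbers were not taken to pair libraries. Depth is unknown, so an H4K5acK8ac peak that was missed in both libraries would count as absent.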
